A study of Homo sapiens with 9 samples.

Results

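The genes described here are the members of the AP-1 transcription factor family, with ATF3 and BATF3, in HaCaT keratinocytes, an immortalized human skin line. They were chosen by gene symbol from 3 groups, the Fos family (FOS, FOSB, FOSL1 and FOSL2), the Jun family (JUN, JUNB and JUND) and the related factors ATF3 and BATF3, and make up 9 of the 16199 genes listed in at least 1 library. RNA was sequenced from 3 libraries of untreated cells, 3 of cells given epidermal growth factor (EGF, 10 nM) for 24 h, and 3 of cells given bleogen pB1 (1 µM) for 24 h. Bleogen pB1 is an EGF-like, disulfide-rich peptide of cactus origin. All 9 libraries came from wild-type cells of a single line in medium without serum, and the agents were added once the cells were confluent. The labels do not say whether the 3 replicates of a group came from separate cultures, so the p-values measure the spread between these libraries, which may be technical. The doses of EGF and bleogen pB1 differ, and only 1 treatment time was sampled. The sample titles give no time for the untreated cells.

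AP-1 is a dimer of basic leucine zipper (bZIP) proteins. Jun proteins pair with each other or with Fos proteins, whereas Fos proteins need a Jun partner, and the make-up of the dimer sets which genes are bound and how strongly. FOS, FOSB, JUN, JUNB and ATF3 are known as immediate-early genes, switched on within minutes of growth factor or stress signals and mostly silent again within hours, while FOSL1 transcripts accumulate later and stay up while ERK kinase signalling lasts. In skin, AP-1 is known for its part in keratinocyte proliferation, differentiation and wound repair.

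The AP-1 dimer binds TGANTCA, and dimers that include ATF proteins also bind the CRE-like site TGACNTCA. TGANTCA reads the same on either strand and TGACNTCA does not, both strands were searched for each, and neither site contains the other. Promoters from RefSeq (GRCh38.p14) were at hand for 7 of the 9 genes, as 8 windows of the 250 bases before a transcription start. FOSL1 and BATF3 had no entry. TGACNTCA was found in the windows of JUN, JUND and ATF3, whose transcript levels moved in different directions under EGF (below), so these windows are printed here, 5′ to 3′ on the coding strand, with the match in capitals. JUN lies at chr1:58784048-58784297 on the minus strand, with the match 67 to 60 bases before the start. JUND lies at chr19:18281623-18281872 on the minus strand, with the match 200 to 193 bases before the start. ATF3 (the upstream of its 2 windows) lies at chr1:212565157-212565406 on the plus strand, with the match 123 to 116 bases before the start.

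JUN: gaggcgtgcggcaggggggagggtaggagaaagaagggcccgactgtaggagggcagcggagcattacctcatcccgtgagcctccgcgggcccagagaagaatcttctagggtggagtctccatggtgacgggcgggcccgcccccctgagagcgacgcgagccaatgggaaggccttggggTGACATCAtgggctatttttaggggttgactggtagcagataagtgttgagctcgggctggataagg

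JUND: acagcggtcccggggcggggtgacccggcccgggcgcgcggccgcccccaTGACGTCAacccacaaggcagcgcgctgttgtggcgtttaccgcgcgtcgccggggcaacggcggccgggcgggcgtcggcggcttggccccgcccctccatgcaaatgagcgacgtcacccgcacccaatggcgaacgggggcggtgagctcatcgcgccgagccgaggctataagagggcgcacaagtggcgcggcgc

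ATF3: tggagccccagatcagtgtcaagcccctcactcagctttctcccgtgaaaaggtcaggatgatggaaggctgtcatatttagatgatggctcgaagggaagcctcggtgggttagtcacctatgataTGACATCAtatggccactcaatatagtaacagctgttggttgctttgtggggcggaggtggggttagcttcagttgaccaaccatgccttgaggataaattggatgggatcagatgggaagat

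The other 5 windows held no match to TGACNTCA, and none of the 8 held TGANTCA or a CArG box, the site of serum response factor. Over all 35116 promoter windows of this length, 6.87% held TGACNTCA, 6.57% held TGANTCA and 1.16% held a CArG box. A match to a few letters is a description of the window and not a bound site. Sites outside these windows were not searched, so a window without a match does not mean a gene without the site.

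The 9 genes differ in structure. In GENCODE 44 (GRCh38), JUN (chr1:58776845-58784048), JUNB (chr19:12791486-12793315) and JUND (chr19:18279694-18281622) each have a single exon, whereas FOS (chr14:75278826-75282230), FOSB (chr19:45467995-45475179), FOSL1 (chr11:65892049-65900573), FOSL2 (chr2:28392448-28417317) and ATF3 (chr1:212565334-212620777) each have 4 and BATF3 (chr1:212686417-212699840) has 3, counted in the MANE transcript. FOSB overlaps ERCC1 on the opposite strand, JUNB overlaps HOOK2 on the opposite strand, and FOSL2 overlaps the antisense transcript FOSL2-AS1 and, on its own strand, the long noncoding RNA gene ENSG00000270640 (chr2:28396815-28397110). These are overlaps of whole gene spans, and shared exons were not looked for. Whether strand was used in counting is not given in the sources used here. The part of the overlapping genes in the values of FOSB, JUNB and FOSL2 was not tested.

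Each library held between 20288417 and 21320994 expected counts. A level of 3 counts equals 0.141 to 0.148 CPM (counts relative to library size). Keratinocyte markers were high in every library, with KRT5 at 3270 to 3636 FPKM (fragments scaled to gene length and library size) and KRT14 at 922 to 1082 FPKM in untreated cells. The 5 keratinocyte markers summed to 4950 to 5475 FPKM in untreated, 3882 to 4003 in EGF-treated and 5009 to 5855 in bleogen pB1-treated cells. The markers did not move together, since with EGF the ranges of KRT5 (1492 to 1589 FPKM), DSP (55.1 to 74.3 FPKM) and JUP lay below the untreated ones, while those of KRT14 (1746 to 1788 FPKM) and TP63 (58.0 to 76.6 FPKM, against 46.9 to 50.3 FPKM) lay above. Markers of other cells were low. The 6 fibroblast markers summed to at most 1.85 FPKM, the 4 melanocyte markers to at most 0.87 FPKM with TYR unlisted in any library, and the 3 endothelial markers to at most 1.05 FPKM. The leukocyte list reached 6.55 to 6.96 FPKM in untreated and 10.15 to 11.29 FPKM in EGF-treated cells, almost all of it CD68, with AIF1 unlisted and PTPRC and CD3E at no more than 0.14 FPKM. The part of these marker differences in the results was not tested. In such bulk RNA, fewer cells of a type and less RNA per cell cannot be told apart.

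At rest, JUNB and JUND were the most abundant members, with FPKM levels of 69.1 ± 2.86 and 68.3 ± 5.07 (SD, n = 3) whose ranges overlapped. FOSL1 followed at 23.8 ± 0.673 FPKM. FOSL2 (13.7 ± 0.976 FPKM) and ATF3 (13.0 ± 0.956 FPKM) came next and overlapped each other, and JUN stood below them at 9.47 ± 0.299 FPKM. FOS and FOSB, the classical fast responders, were near the bottom at 2.34 ± 0.225 and 2.05 ± 0.263 FPKM and overlapped. BATF3, a dimer partner of Jun proteins best known from dendritic cells, was missing from 8 of the 9 libraries, which was taken as 0. It stood at 0.10 FPKM, from 2 counts, in EGF replicate 3. It fell below the count filter and was not tested.

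After 24 h of EGF the order was rebuilt. FOSL1 became the most abundant member at 258.9 ± 20.0 FPKM, and moved from a position where 3401 genes were at or above its mean FPKM to one where 231 were. JUNB was second at 79.6 ± 6.31 FPKM. JUND (21.6 ± 2.69 FPKM) and JUN (17.4 ± 2.01 FPKM) now overlapped, and FOSL2, ATF3, FOSB and FOS followed at 7.83, 4.09, 2.27 and 1.55 FPKM with ranges that did not overlap their neighbours. With bleogen pB1 the order stayed nearer to the untreated one, from JUNB (67.9 ± 0.366 FPKM) through JUND (49.5 ± 12.5 FPKM) and FOSL1 (34.1 ± 7.93 FPKM), which overlapped, to FOSL2 (14.1 FPKM), then JUN (9.60 FPKM) and ATF3 (9.24 FPKM), which overlapped, and FOSB (2.25 FPKM) and FOS (2.05 FPKM), which overlapped as well.

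**Figure D1:**
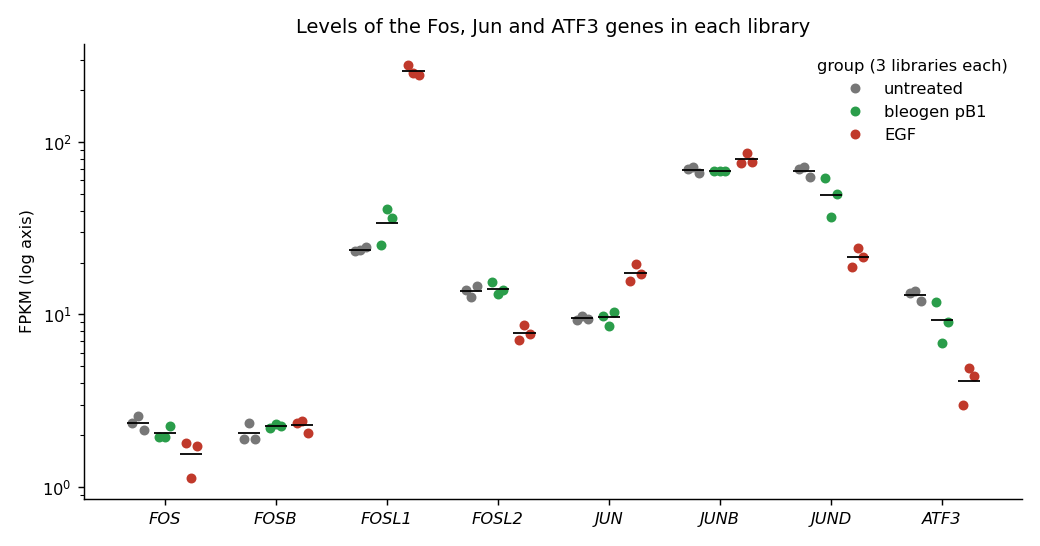
FPKM of 8 genes in each of the 9 libraries on a log axis, with points for libraries, coloured by group, and black lines for group means. FOSL1 stands at 244 to 282 FPKM in the EGF libraries against 23.3 to 24.6 FPKM in the untreated ones, while JUND and ATF3 step down from untreated through bleogen pB1 to EGF.

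Differences were tested with edgeR across 12394 genes, and a gene was called when its adjusted p was at most 0.05 and its log2 fold change at least 0.5 in size. Under EGF, 6 of the 8 tested members were called, 2 higher (FOSL1 and JUN) and 4 lower (FOS, FOSL2, JUND and ATF3). Of all genes tested, 36.9% were called in this comparison, 15.1% higher and 21.8% lower. The ranges of the 3 EGF and 3 untreated libraries did not overlap for 7 of the 8 members, against 70.4% of all genes tested. With upper-quartile scaling, the median log2 fold change of all genes was -0.12, against -0.01 in the main fit. The split of all calls went from 1875 higher and 2703 lower to 1396 higher and 3221 lower, and the same number of members was called.

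Within the Fos family, FOSL1 (NCBI gene 8061), which encodes Fra-1, a Fos protein without a transactivation domain that is linked to epithelial migration and invasion, carried the change. Its FPKM was 23.31, 23.53 and 24.57 in the untreated libraries and 281.7, 250.7 and 244.2 in the EGF libraries, so every EGF library stood far above every untreated one. The level rose from 39.0 ± 0.947 to 442 ± 33.8 CPM (SD, n = 3), 11.3-fold (95% interval 9.25 to 13.8), with a log2 fold change of 3.50 ± 0.13 (SE) and an adjusted p of 6.2e-10 in edgeR. Among the 12394 genes it had the 35th largest log2 rise.

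FOSL2 (NCBI gene 2355), which encodes Fra-2, the closest relative of Fra-1, went the other way. Its FPKM was 13.82, 12.60 and 14.53 in untreated and 7.12, 8.67 and 7.69 in EGF-treated cells. The level fell from 53.4 ± 3.46 to 31.9 ± 3.10 CPM, or -0.74 ± 0.09 on the log2 scale (SE; adjusted p = 1.1e-05, edgeR). FOSL1 and FOSL2 thus moved in opposite directions under the same treatment.

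FOS (NCBI gene 2353), the founding member and a textbook immediate-early gene, was low throughout, with 91 to 109 expected counts in the untreated and 48 to 78 in the EGF libraries. Its FPKM of 2.33, 2.57 and 2.12 in untreated cells compared with 1.80, 1.12 and 1.72 in EGF-treated cells, with EGF replicate 2 the lowest. In edgeR the log2 fold change was -0.53 ± 0.19 (SE) with an adjusted p of 0.024, just past the limit for a call. This call rests on single libraries, since it was lost without untreated replicate 1 (-0.54, adjusted p = 0.056), untreated replicate 2 (-0.46, adjusted p = 0.092) or EGF replicate 2 (-0.34, adjusted p = 0.10), and with limma on log2(FPKM + 1) (-0.40).

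FOSB (NCBI gene 2354), whose transcripts also encode a truncated form that the gene-level values cannot separate, had 144 to 177 expected counts in the untreated and 163 to 184 in the EGF libraries. The groups overlapped, and the log2 fold change of 0.21 (95% interval -0.06 to 0.49) did not pass the test (edgeR adjusted p = 0.16). ERCC1, which shares the locus, had 58.1 ± 1.72 CPM in untreated and 88.9 ± 3.52 CPM in EGF-treated cells, against 7.52 ± 1.02 and 8.70 ± 0.753 CPM for FOSB, and its part in the FOSB value was not tested.

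In the Jun family, JUN (NCBI gene 3725), the strongest activator among the Jun proteins, rose. It had FPKM values of 9.24, 9.81 and 9.37 in the untreated libraries and 15.56, 19.54 and 17.11 in the EGF libraries, with no overlap. The level went from 30.7 ± 1.14 to 58.8 ± 6.63 CPM, 1.92-fold (95% interval 1.67 to 2.21), or 0.94 ± 0.09 on the log2 scale (SE; adjusted p = 2.4e-06, edgeR).

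JUND (NCBI gene 3727), usually expressed at a steady level and known to slow proliferation in fibroblasts, fell. Its FPKM was 70.28, 72.01 and 62.50 in untreated and 18.93, 24.30 and 21.61 in EGF-treated cells, a wide gap between the groups. The level dropped from 127.9 ± 10.3 to 42.4 ± 5.22 CPM, 3.02-fold lower, or -1.59 ± 0.15 on the log2 scale (SE; adjusted p = 1.8e-06, edgeR).

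JUNB (NCBI gene 3726), whose loss in mouse epidermis is known to cause skin inflammation, differed little. It stood at 70.02, 71.45 and 65.93 FPKM in untreated and 75.28, 86.81 and 76.61 FPKM in EGF-treated cells, which did not overlap. The log2 fold change of 0.27 ± 0.06 (SE) had an edgeR adjusted p of 0.0024 but was under the fold limit. HOOK2, on the opposite strand, was at 63.6 ± 1.20 CPM in untreated and 43.3 ± 1.54 CPM in EGF-treated cells, against 120.5 ± 5.80 and 145.3 ± 11.5 CPM for JUNB.

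ATF3 (NCBI gene 467), a stress-induced bZIP factor that as a homodimer represses transcription and that also pairs with Jun proteins, fell as far as JUND did. Its FPKM was 13.37, 13.74 and 11.93 in the untreated and 2.99, 4.87 and 4.42 in the EGF libraries. The level went from 26.1 ± 2.11 to 8.60 ± 2.06 CPM, 3.03-fold lower, or -1.60 ± 0.20 on the log2 scale (SE; adjusted p = 1.3e-05, edgeR). Ordered by the size of the log2 fall among the 12394 genes, ATF3 was number 630 and JUND number 636.

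**Figure D2:**
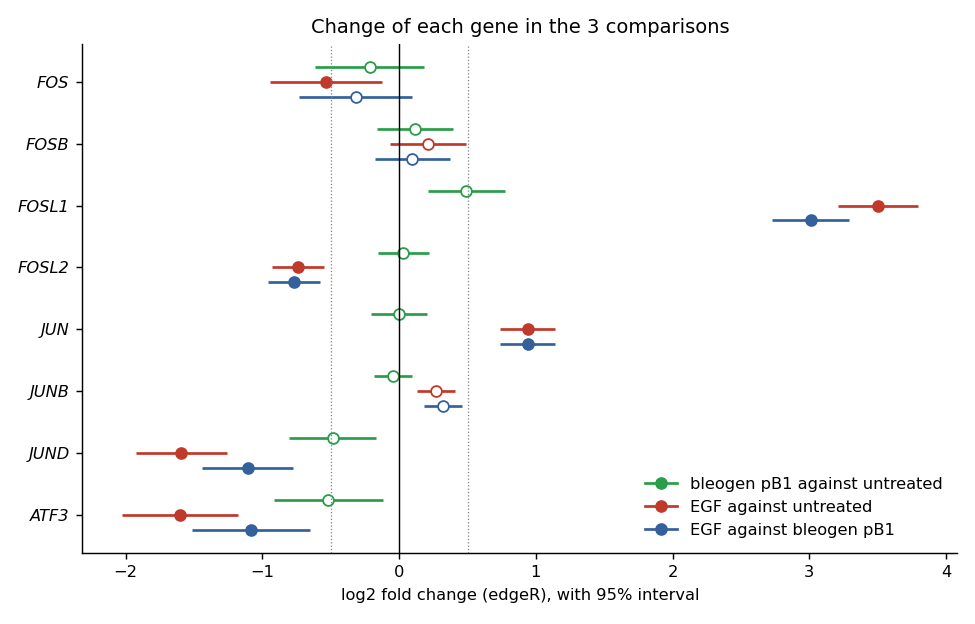
Log2 fold change of 8 genes in the 3 comparisons with 95% intervals from edgeR, where filled points passed the test and the fold limit (dotted lines at 0.5 and -0.5) and open points did not. Under EGF, FOSL1 is at 3.50 and JUN at 0.94, JUND and ATF3 lie near -1.6, and no bleogen pB1 point is filled.

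The changes altered the make-up of both families. FOSL1 supplied 56.9 ± 0.480% of the summed FPKM of the 4 Fos genes in untreated cells and 95.7 ± 0.423% in EGF-treated cells (SD, n = 3), a difference of 38.8 percentage points with no overlap. FOSL2 went from 32.6 ± 1.66% to 2.91 ± 0.441%, while FOS went from 5.60% to 0.571% and FOSB from 4.90% to 0.840%. FOSB had no called change of its own, so its smaller share is set by the larger total. That total, the summed FPKM of the Fos family, was 41.1 to 43.1 in untreated and 255.7 to 293.0 in EGF-treated cells.

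The Jun family shifted towards JUNB and JUN. JUND supplied 46.4 ± 0.944% of the summed Jun FPKM in untreated and 18.2 ± 0.825% in EGF-treated cells, JUNB 47.1 ± 0.657% and 67.2 ± 1.24%, and JUN 6.46 ± 0.315% and 14.7 ± 0.420%. The total Jun FPKM was 137.8 to 153.3 in untreated and 109.8 to 130.7 in EGF-treated cells. Untreated cells thus held more Jun than Fos family transcript per length in each of the 3 libraries, and EGF-treated cells held more Fos than Jun family transcript in each of the 3. For each of the 7 shares the EGF and untreated libraries did not overlap, and the two-sided exact permutation test gave p = 0.1, the smallest that 3 against 3 libraries allow.

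**Figure D3:**
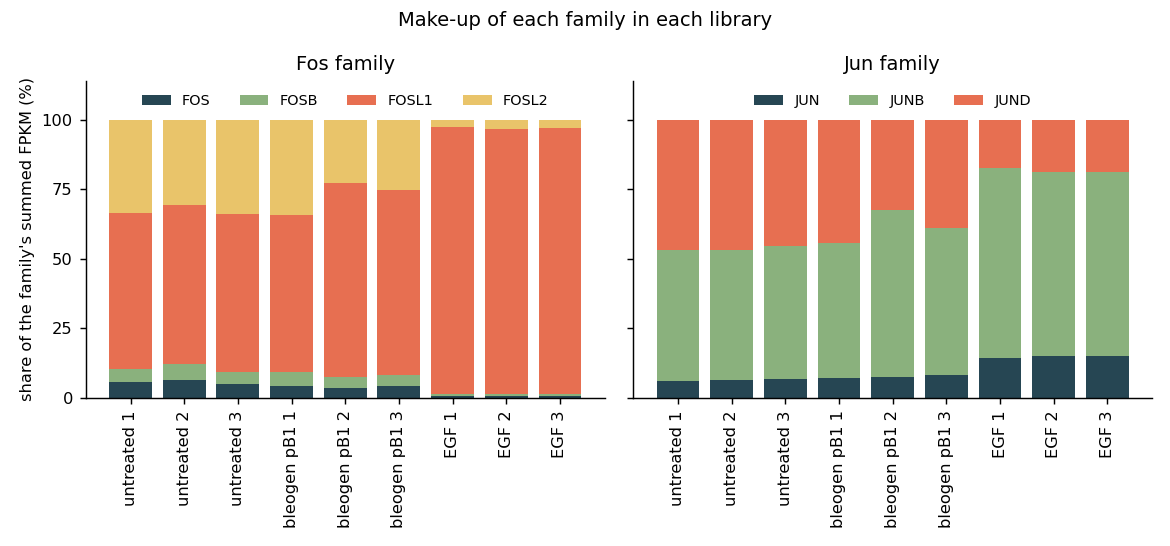
Share of each gene in the summed FPKM of the Fos family (left) and the Jun family (right), in percent, with 1 stacked bar per library. FOSL1 fills 95.7% of the Fos bars on average with EGF, and the JUND part shrinks from 46.4% in untreated to 18.2% in EGF-treated cells.

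Bleogen pB1 left all 8 tested members uncalled. No member passed in edgeR, DESeq2 or limma, and 3 members (FOSL1, JUND and ATF3) had an unadjusted edgeR p under 0.05. In this comparison 1.48% of all genes tested were called, 0.218% higher and 1.26% lower. The same 3 members were those whose bleogen pB1 and untreated ranges did not overlap, against 29.1% of all genes.

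FOSL1 had FPKM values of 25.41, 40.92 and 36.05 with bleogen pB1, all above the untreated values, with replicate 1 just above them. The means were 54.9 ± 12.6 CPM with bleogen pB1 and 39.0 ± 0.947 CPM without, a log2 fold change of 0.49 (95% interval 0.21 to 0.77, edgeR adjusted p = 0.053). JUND had FPKM values of 61.82, 36.80 and 49.80, all below the untreated ones, and a log2 fold change of -0.49 (95% interval -0.80 to -0.17, edgeR adjusted p = 0.079). ATF3 had FPKM values of 11.88, 6.82 and 9.02, also all below the untreated ones, and a log2 fold change of -0.52 (95% interval -0.91 to -0.12, edgeR adjusted p = 0.12).

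Across these 3 genes the bleogen pB1 libraries fell in 1 order. Replicate 1 lay nearest to the untreated mean, at log2 differences in CPM of 0.07 for FOSL1, -0.15 for JUND and -0.15 for ATF3. Replicate 2 lay farthest, at 0.75, -0.91 and -0.95, and replicate 3 between them at 0.57, -0.48 and -0.55. Without bleogen pB1 replicate 1, all 3 genes were called, with log2 fold changes of 0.66 for FOSL1 (edgeR adjusted p = 0.0008), -0.68 for JUND (adjusted p = 0.0065) and -0.74 for ATF3 (adjusted p = 0.017). Calls over all genes also rose when this library was left out, from 183 of 12394 tested to 436 of 12526. For FOSL1, JUND and ATF3 alike, the range across the 3 bleogen pB1 libraries was wider than the difference of their mean from the untreated mean.

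**Figure D4:**
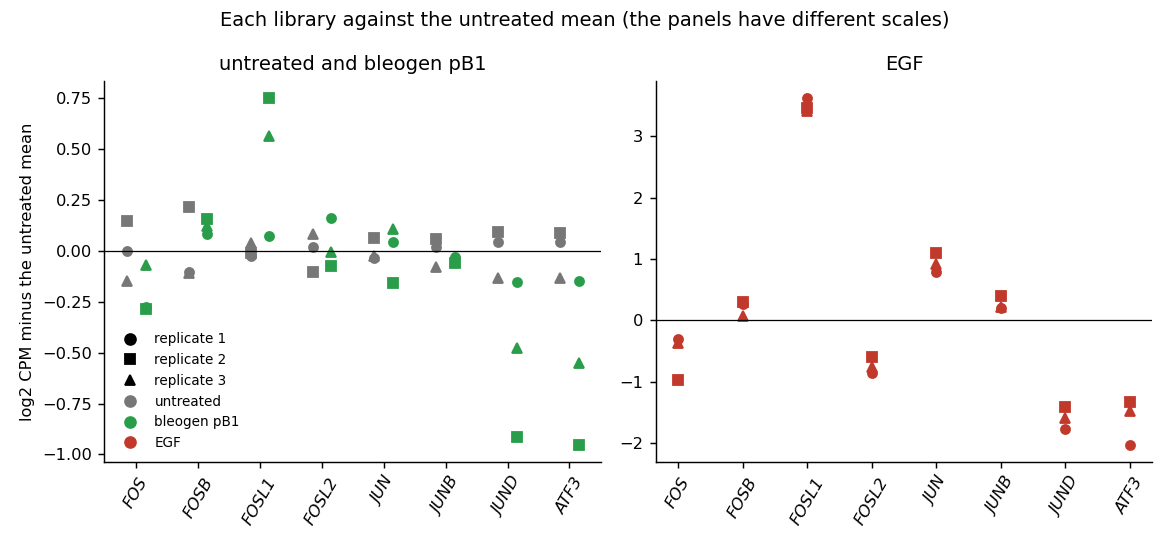
Log2 CPM of each library minus the untreated mean for 8 genes, with untreated and bleogen pB1 libraries on the left and EGF libraries on the right, on different scales, and symbols for replicates. Bleogen pB1 replicate 1 sits near 0 for FOSL1, JUND and ATF3, and replicate 2 lies farthest from 0, at 0.75, -0.91 and -0.95.

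The other 5 members showed small differences with bleogen pB1. The log2 fold change was 0.00 for JUN (95% interval -0.20 to 0.21), 0.03 for FOSL2 (-0.16 to 0.22) and -0.05 for JUNB (-0.19 to 0.09), so these intervals leave out a change past the fold limit in either direction. FOSB, at 0.12 (-0.16 to 0.39), was likewise inside the limit. The interval of FOS was wider, at -0.22 (-0.61 to 0.18), and a fall of the size seen with EGF lies within it. In the family totals, FOSL1 made up 64.4 ± 6.98% of the Fos FPKM with bleogen pB1, which overlapped the untreated share (two-sided exact permutation p = 0.3), and JUND made up 38.5 ± 5.81% of the Jun FPKM, which did not (p = 0.1, the smallest possible). The shares of JUN (7.58%, untreated 6.46%), JUNB (53.9%, untreated 47.1%) and FOS (3.94%, untreated 5.60%) did not overlap either, each with the same permutation p. Those of FOSL2 and FOSB overlapped (two-sided exact permutation p = 0.4 for each). Shares within a family depend on one another, and JUN and JUNB themselves had log2 fold changes of 0.00 and -0.05.

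Set against each other directly, EGF at 10 nM and bleogen pB1 at 1 µM differed in 5 of the 8 members. FOSL1 (log2 difference 3.01 ± 0.13, SE) and JUN (0.94 ± 0.09) were higher with EGF, and FOSL2 (-0.77 ± 0.09), JUND (-1.11 ± 0.15) and ATF3 (-1.08 ± 0.20) were lower with EGF (edgeR adjusted p between 2.7e-09 and 0.0005). Of all genes tested, 28.8% were called here, 10.8% higher and 18% lower with EGF. JUNB differed by 0.32 (adjusted p = 0.0010), under the fold limit, while FOS (-0.32, 95% interval -0.73 to 0.10) and FOSB (0.10, -0.18 to 0.37) did not pass. The ranges did not overlap for 7 of the 8 members, against 62.4% of all genes. Both comparisons with untreated cells share the same 3 untreated libraries. The direct contrast does not use the untreated means, but these libraries entered the fit that gave its errors and p-values.

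The genes whose levels most resembled those of FOSL1, JUN and ATF3 were looked for by Pearson's r of log2 CPM over the 9 libraries, among 10867 genes. The 9 points share 3 groups and are not independent, so r is given as a description. FOSL1 was followed most closely by KPNA4 (r = 0.999), an importin, and by TGFA (r = 0.998), an EGF receptor ligand, and ATG16L1 (r = 0.998), an autophagy factor. JUN was followed by the lysosomal protease gene CTSL (r = 0.996), the Eph receptor gene EPHB6 and the transcription factor gene ETS1 (both r = 0.994). ATF3 was followed by the lysosomal genes PSAP (r = 0.998) and MAN2B1 (r = 0.997) and by KLHL24 (r = 0.996). Between the tested members, ATF3 and JUND had the highest r of all pairs, 0.991. Other pairs were also strong, with r = 0.948 for FOSL1 and JUN and r = -0.967 for FOSL1 and FOSL2.

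Genes around AP-1 were grouped in 5 lists, other bZIP partners, upstream kinases and regulators, other immediate-early genes, AP-1 target genes of keratinocytes and stress-response genes that accompany ATF3, with 77 of 87 genes tested. With EGF, 33 were called higher and 11 lower (57.1%), against the 36.9% of all genes given above. The all-gene median log2 fold change was -0.01. With bleogen pB1, 4 were called higher and 3 lower (9.09%, against 1.48% of all genes).

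Among 12 other bZIP genes tested, EGF raised 5 and lowered 2, with a median log2 fold change of 0.18. The small Maf genes, whose products lack a transactivation domain and dimerize with CNC-type bZIP proteins, all rose, MAFF by 1.02 ± 0.09 (SE), MAFG by 1.14 ± 0.10 and MAFK by 0.91 ± 0.09 on the log2 scale. The genes that fell were BATF2 (-2.58 ± 0.29), an interferon-inducible relative of BATF3, and JDP2 (-0.64 ± 0.12), a Jun dimerization partner that represses AP-1. BATF2 was also the only gene of this list called with bleogen pB1 (-1.07, edgeR adjusted p = 0.032), at 3.68 ± 0.850 CPM in untreated and 1.76 ± 0.421 CPM in bleogen pB1-treated cells. That call was not made by DESeq2, and was lost when any of untreated replicates 1 and 3, EGF replicate 3, and bleogen pB1 replicates 2 and 3 was left out.

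Of 18 upstream kinases and regulators, EGF raised 5 and lowered 1 (median 0.23). This is 33.3% of the list, near the 36.9% of all genes. The changes were small. RPS6KA1, a ribosomal S6 kinase activated by ERK, rose by 0.73 ± 0.06, ELK3, an ETS-domain partner of serum response factor, by 0.73 ± 0.07, and ITCH, a ubiquitin ligase that targets Jun proteins, by 0.56 ± 0.06 on the log2 scale, whereas MAPK3, which encodes the kinase ERK1, fell (-0.63 ± 0.08). With bleogen pB1, 0 of the 18 were called in edgeR, DESeq2 or limma, and 4 had an unadjusted edgeR p under 0.05.

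Of 16 other immediate-early genes tested, EGF raised 5 and lowered 4 (median 0.17), so the class did not move as one. IER3, an ERK-regulated survival gene, rose by 3.36 ± 0.13 on the log2 scale, from 42.3 ± 0.936 to 435.3 ± 13.6 CPM, close to the size of the FOSL1 change. KLF10 (0.99 ± 0.09), a zinc finger factor induced by TGF-beta, and ZFP36 (0.86 ± 0.08), which promotes decay of AU-rich mRNAs, also rose. BTG2 (-1.47 ± 0.15), an antiproliferative gene, EGR2 (-1.60 ± 0.32), a zinc finger factor, and CCN1 (-0.73 ± 0.09), a secreted matricellular protein, fell. The level of EGR2 was low, at 1.66 ± 0.347 CPM in untreated and 0.544 ± 0.0375 CPM in EGF-treated cells. CCN1 was called with bleogen pB1 too (-0.52, edgeR adjusted p = 0.0075), a call that was lost without bleogen pB1 replicate 2 and not made by limma on log2(FPKM + 1).

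Of 21 AP-1 target genes tested, EGF raised 12 and lowered 4 (median 1.23). HBEGF, an EGF receptor ligand, rose by 4.87 ± 0.19, PLAUR, the urokinase receptor, by 2.35 ± 0.10, and VEGFA, an angiogenic factor, by 2.13 ± 0.09 on the log2 scale. The 4 that fell do not share the direction of the others. They were IVL (-3.96 ± 0.32) and TGM1 (-1.81 ± 0.19), a cornified envelope protein and the enzyme that cross-links it, and the matrix metalloproteinase genes MMP13 (-1.82 ± 0.12) and MMP10 (-0.99 ± 0.11). With bleogen pB1, 4 of the 21 were called, all higher (median of the list 0.22). These were the collagenase gene MMP1 (1.12 ± 0.19, adjusted p = 0.0068), SPRR1B, a small proline-rich envelope precursor (1.27 ± 0.24, adjusted p = 0.010), MMP10 (0.70 ± 0.10, adjusted p = 0.0019) and PLAUR (0.64 ± 0.10, adjusted p = 0.0029). The level of SPRR1B was low, at 0.919 ± 0.270 CPM in untreated and 2.23 ± 0.239 CPM in bleogen pB1-treated cells. With EGF, MMP1 (3.03 ± 0.19), SPRR1B (3.71 ± 0.20) and PLAUR rose as well, so 3 of the 4 had the same direction under both agents. MMP10 rose with bleogen pB1 and fell with EGF, and the direct difference was -1.69 ± 0.11 (adjusted p = 8.2e-08).

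Of 10 stress-response genes tested, EGF raised 6 and lowered 0 in edgeR (median 0.63; 1 gene was lower at an unadjusted p under 0.05, and DESeq2 and limma each called 6 genes), while ATF3 fell by 1.60 on the log2 scale. The other 4 were not called. CDKN1A, the cell cycle inhibitor p21, rose by 1.51 ± 0.14, GADD45A, a growth arrest gene, by 0.96 ± 0.11, and PPP1R15A, which restores translation after stress, by 0.92 ± 0.11. TRIB3, a pseudokinase gene downstream of ATF4, was the only one of the list called with bleogen pB1, at -0.62 ± 0.10 (adjusted p = 0.0046), and with EGF it rose by 0.62 ± 0.10 (adjusted p = 0.00012). The list median was -0.35 with bleogen pB1, against -0.001 over all genes tested, with 9 of the 10 genes not called. At an unadjusted edgeR p under 0.05, 6 of the 10 were lower with bleogen pB1 and 0 were higher.

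**Figure D5:**
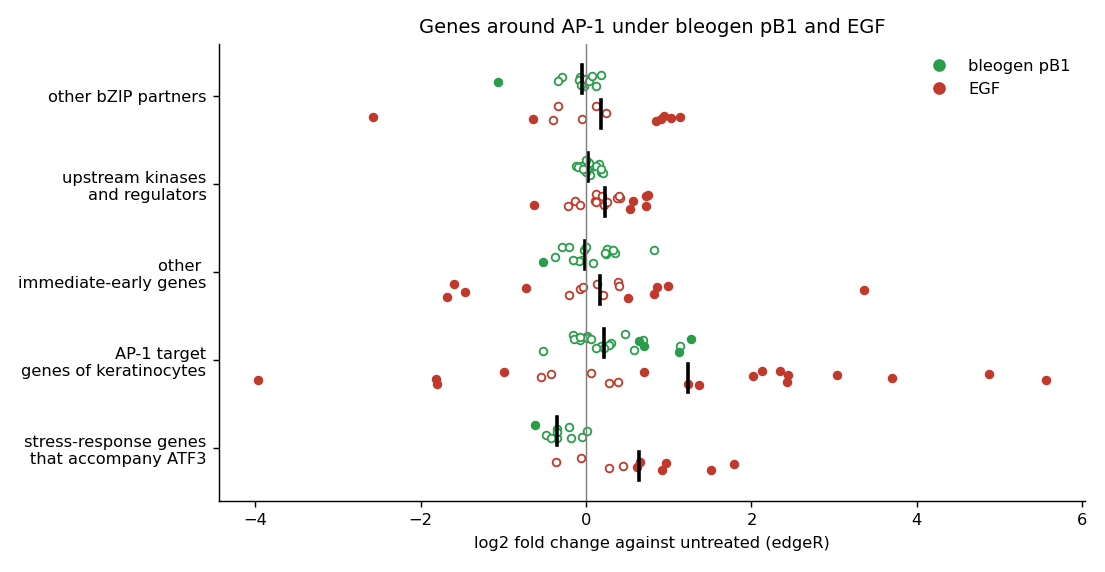
Log2 fold change against untreated cells of the 77 genes around AP-1 in 5 lists, with 1 point per gene (filled when called), bleogen pB1 above EGF in each list and black bars for list medians. EGF medians run from 0.17 to 1.23, and the stress-response genes are centred to the right of 0 with EGF (median 0.63) and to the left with bleogen pB1 (median -0.35).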

How the data were processed

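RNA of 9 HaCaT libraries was selected with oligo-dT, made into dUTP-stranded libraries and sequenced at BGI. Per the labels and the study's methods, GRCh38.p12 was the genome build used for mapping. The counting program and its strand setting are not given in the sources used here. The authors deposited, per library and gene, an expected count (an estimate that is not scaled for depth), an FPKM value and a gene length in bases. A gene missing from a library was taken as 0.

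Expected counts were rounded and tested with edgeR 4.0.16 (R 4.3.3). The filterByExpr filter kept 12394 genes, TMM factors were used, all 9 libraries entered 1 quasi-likelihood fit with 6 residual degrees of freedom, and p-values were adjusted by Benjamini-Hochberg over all genes kept. CPM used TMM-scaled library sizes. A standard error is the size of a log2 fold change over the root of its F statistic, and 95% intervals use the same fit. FPKM served to compare genes with one another. Log2 differences of single libraries from the untreated mean used a pseudocount of 0.1 CPM. Family shares were tested by two-sided exact permutation. DESeq2 1.42.0, limma 3.58.1 on log2(FPKM + 1) and log2(FPKM + 0.1), other scalings and filters, and leaving out each library were alternatives. The edgeR script was tested on simulated data. Floors and intervals cover counting error or library spread only.

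Members and lists were chosen with earlier results of these data known, and no list is independent evidence of its direction. From each list, the up to 3 called rises and 3 called falls with the smallest adjusted p under EGF are named, with every gene called under bleogen pB1. One leukocyte marker is not reported here. For the 3 most similar genes, Pearson's r was computed over genes with a mean of at least 50 counts. Within groups, replicate libraries differed by more than sampling noise (chi-square per degree of freedom of 3.78 to 20.2).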

Additional observations from a re-analysis of the deposited data

Results flagged for a closer look

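The direct contrast of EGF with bleogen pB1 gave 5 members whose response differed between the agents (edgeR, 3 libraries each). The log2 difference was 3.01 for FOSL1, 0.94 for JUN, -0.77 for FOSL2, -1.11 for JUND and -1.08 for ATF3. For FOSL1, JUND and ATF3 the mean with bleogen pB1 lay between the untreated and the EGF means, and for JUN and FOSL2 the bleogen pB1 libraries overlapped the untreated ones. The agents were given at different doses, so dose and agent cannot be told apart in these differences.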

How the results depend on the processing

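Each member was refitted under 21 alternatives per comparison. FOSL1, JUND and ATF3 kept their EGF call under all 21, with log2 fold changes of 3.39 to 3.55, -1.70 to -1.51 and -1.74 to -1.42. A fold limit of 1 on the log2 scale reduced the members called from 6 to 3 for EGF against untreated and from 5 to 3 for EGF against bleogen pB1, and the pathway genes called from 44 to 23, from 42 to 26 and, with bleogen pB1, from 7 to 3. Over all 12394 genes tested, the same limit reduced the calls from 4578 to 1892, from 3564 to 1458 and, with bleogen pB1, from 183 to 31. Limma on log2(FPKM + 1) without a filter also gave 3 pathway genes with bleogen pB1, and 92 of all 16199 genes. Leaving out single libraries gave 0 to 3 members called with bleogen pB1, the 3 being without bleogen pB1 replicate 1. In that fit 436 of all 12526 genes tested were called, against 183 of 12394 in the main fit. The EGF call of FOS was lost under 6 of the 21 alternatives, over all of which its log2 fold change ran from -0.65 to -0.34. JUNB passed for EGF when the fold limit was dropped. No direction called in the main fit was reversed. The rise in the FOSL1 share with EGF was 39.3 percentage points when expected counts were divided by gene length, against 38.8 from FPKM.

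The labels do not say whether the replicate numbers pair the samples. Deviations from the group means had correlations of -0.03 to 0.21 between same-numbered libraries. With so few libraries and no reference from unlike numbers, these values cannot decide whether the samples are paired. With a replicate block, 6, 0 and 5 members were called for EGF against untreated, bleogen pB1 against untreated and EGF against bleogen pB1, as without it. Among the members, depth limits FOS (48 to 109 counts) and BATF3 most.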

Other observations

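A few further genes of the lists were picked here after their values were seen. IL6, an inflammatory cytokine and AP-1 target, had 1.81 CPM in untreated cells and was at -0.54 ± 0.30 on the log2 scale with EGF (SE; adjusted p = 0.12 in edgeR) and 0.69 ± 0.27 (adjusted p = 0.15) with bleogen pB1, and the direct difference was -1.24 ± 0.28 (adjusted p = 0.0023). EGFR, the receptor of EGF, was at -0.43 ± 0.10 with EGF (adjusted p = 0.0020, under the fold limit) and -0.07 ± 0.10 with bleogen pB1 (adjusted p = 0.71), and the direct difference was -0.36 ± 0.10 (adjusted p = 0.0078), under the fold limit and with overlapping ranges. MAP2K1, which encodes the ERK kinase MEK1, rose by 0.75 ± 0.08 on the log2 scale with EGF (adjusted p = 6e-06), while MAP2K2, which encodes MEK2, was at -0.13 ± 0.06 (adjusted p = 0.062). The direct difference between the agents was 0.55 ± 0.08 for MAP2K1 (adjusted p = 0.00012), which was called, and -0.04 ± 0.06 for MAP2K2 (adjusted p = 0.63), which was not.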
